A study of Mus musculus with 12 samples.

Results

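Pdcd1, Cd274 and Pdcd1lg2 encode the inhibitory receptor PD-1 and its ligands PD-L1 and PD-L2. They were found by Ensembl ID in a deposited table of gene counts, as 3 genes of 55401, and all 3 passed the filter on low counts that left 20818 genes for testing. RNA had been sequenced from 12 tumors of TC2Ras, a mouse prostate cancer cell line, which were grown under the skin of mice and removed 21 days later. Every mouse had eaten low-arsenic AIN-76A chow with Milli-Q water for 2 weeks before implantation, every flank received 125000 cells, and the tumors of both flanks of a mouse were joined into 1 sample. Control tumors grew from TC2Ras cells alone, and the mice drank water with 0 ppb iAs, which stands for inorganic arsenic. ASC tumors grew from TC2Ras cells with 1% ASC-GFP cells at 0 ppb iAs. A300 tumors grew from TC2Ras cells alone at 300 ppb iAs, and ASC300 tumors had both the ASC-GFP cells and 300 ppb iAs. Each group had 3 tumors. ASC-GFP cells are primary adipose-derived stromal cells of male C57BL/6 mice that carry a GFP transgene. The strain, sex and age of the host mice are not given in the sources used here. The sample labels name the cell type as adipose-derived mesenchymal/stromal cells, but the study's design describes whole tumors, and none of 12 T cell markers or 10 macrophage markers was at 0 counts in any of the 12 tumors.

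PD-1 is a receptor of activated and chronically stimulated T cells. When a ligand binds it, its cytoplasmic tail recruits phosphatases that dampen signals from the T cell receptor and from CD28. PD-L1 is made by many cell types, tumor cells, macrophages and dendritic cells among them, and is a well known target of interferon gamma, with IRF1 as a factor of that response. PD-L2 has a narrower range, mainly dendritic cells and macrophages, and is known to respond to IL-4 and GM-CSF as well as to interferons. Both ligand genes lie side by side on mouse chromosome 19, while the receptor gene is on chromosome 1.

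On GRCm38, Pdcd1 (ENSMUSG00000026285) spans chr1:94038305-94052553 on the minus strand, Cd274 (ENSMUSG00000016496) spans chr19:29367455-29388095 on the plus strand and Pdcd1lg2 (ENSMUSG00000016498) spans chr19:29410919-29471161 on the plus strand. The ligand genes are 22.8 kb apart. The authors' own build is not given in the sources used here, and these positions come from the GENCODE M21 annotation. The 250 bases before each gene's start, from RefSeq on GRCm38.p6, are shown because the receptor and 1 ligand changed together in the tumors described next. Both strands were searched for GAAANNGAA (letters bound by IRF factors), TTCNNNGAA (the letters of a gamma-activated site, GAS), TGANTCA (AP-1) and GGAAA (the core of an NFAT site). Capitals mark every match, read 5′ to 3′ on the strand of the gene.
Pdcd1, chr1:94052554-94052803, minus strand: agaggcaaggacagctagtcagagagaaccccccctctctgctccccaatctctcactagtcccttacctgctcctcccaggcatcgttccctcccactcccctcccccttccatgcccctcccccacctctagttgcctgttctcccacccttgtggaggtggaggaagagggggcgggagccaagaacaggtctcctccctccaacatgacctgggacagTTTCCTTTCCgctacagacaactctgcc
Cd274, chr19:29367188-29367437, plus strand: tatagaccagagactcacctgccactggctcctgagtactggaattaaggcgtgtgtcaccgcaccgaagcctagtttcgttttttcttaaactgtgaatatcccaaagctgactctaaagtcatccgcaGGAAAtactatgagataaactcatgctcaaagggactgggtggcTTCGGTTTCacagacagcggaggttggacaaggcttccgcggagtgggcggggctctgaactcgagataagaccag
Pdcd1lg2, chr19:29410669-29410918, plus strand: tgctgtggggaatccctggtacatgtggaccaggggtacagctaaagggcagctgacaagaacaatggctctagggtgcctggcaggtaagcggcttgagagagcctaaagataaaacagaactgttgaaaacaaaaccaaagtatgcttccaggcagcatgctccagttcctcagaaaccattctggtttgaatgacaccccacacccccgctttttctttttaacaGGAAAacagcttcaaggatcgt
The Pdcd1 window held the NFAT core letters at -28 and -23 from the start, both read on the opposite strand as TTTCC, and none of the other 3 motifs. The Cd274 window held 1 match to the IRF letters, TTCGGTTTC at -76, read on the opposite strand, and 1 NFAT core at -120. The Pdcd1lg2 window held only an NFAT core, at -22. No match overlapped another. Among 32851 mouse promoters of the same length, 7.13% held the IRF letters, 7.02% the GAS letters, 6.75% the AP-1 letters and 55.57% the NFAT core, so the NFAT letters were the common case. The letters are a description of these windows and say nothing of which factor bound them.

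Total counts ran from 39157647 to 55168642 per tumor, and before scaling a level of 1 CPM, or 1 count per 1000000 counts, stood for 39.2 to 55.2 counts. The CPM values given below were further scaled between libraries by TMM factors of 0.953 to 1.054, which moves this range slightly. 1 library stood apart. In Control replicate 1 the 8 B cell markers summed to 238 CPM against 8.72 and 8.75 CPM in the other Control tumors, the 12 T cell markers to 114 CPM against 18.6 and 22.5 CPM, and the 7 epithelial markers to 362.5 CPM against 66.2 and 94.6 CPM. The fits that use the Control group were therefore repeated without this library, and the values for the 3 genes are given both ways. In RNA from whole tumors, fewer cells of a type and less RNA per cell cannot be told apart.

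The receptor and PD-L1 were higher in every tumor grown with ASC than in every tumor grown without, at either iAs level. The share of all genes that separated tumors without overlap was not computed, for this contrast or for those below. Levels of Pdcd1 with ASC were 7.10-fold those without, averaged over both iAs levels, and levels of Cd274 were 3.24-fold. Pdcd1lg2 was the lowest of the 3 genes, and its difference with ASC did not pass the test. None of the 3 genes passed the test for iAs.

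For Pdcd1, the Control tumors gave 1.59, 0.652 and 0.955 CPM and the A300 tumors 1.05, 0.327 and 1.64 CPM. The ASC tumors gave 8.06, 5.79 and 9.65 CPM and the ASC300 tumors 5.57, 6.30 and 9.02 CPM. The lowest of the 6 tumors with ASC stood at 5.57 CPM and the highest of the 6 without at 1.64 CPM, so these did not overlap, while Control overlapped A300 and ASC overlapped ASC300. From the lowest, the group means were 1.01 ± 0.659 CPM in A300, 1.07 ± 0.479 in Control, 6.96 ± 1.82 in ASC300 and 7.83 ± 1.94 in ASC (SD, n = 3 each), and the neighbours A300 and Control, and ASC300 and ASC, did not differ beyond their spread. In counts, the receptor rested on 16 to 93 counts per tumor without ASC and on 216 to 456 with ASC.

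For Cd274, the Control tumors gave 14.5, 12.01 and 8.72 CPM and the A300 tumors 9.53, 5.72 and 9.75 CPM. The ASC tumors gave 31.4, 31.2 and 27.0 CPM and the ASC300 tumors 35.1, 35.0 and 33.1 CPM. The gap between tumors with and without ASC ran from 14.5 to 27.0 CPM with no tumor inside it. The group means, from the lowest, were 8.33 ± 2.26 CPM in A300, 11.7 ± 2.89 in Control, 29.8 ± 2.50 in ASC and 34.4 ± 1.15 in ASC300 (SD, n = 3 each). Control and A300 overlapped, whereas every ASC300 tumor lay above every ASC tumor, a difference that did not pass the test. Cd274 was also the steadiest gene among the tumors with ASC, where its highest value was 1.30 times its lowest, against 1.73 times for Pdcd1 and 3.13 times for Pdcd1lg2.

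For Pdcd1lg2, the Control tumors gave 1.12, 0.211 and 0.174 CPM, or 54, 11 and 8 counts. The ASC tumors gave 0.870, 0.804 and 2.52 CPM, the A300 tumors 0.826, 0.572 and 0.777 CPM, and the ASC300 tumors 2.18, 1.98 and 1.42 CPM. Control replicate 1, the library with many lymphocyte markers, held the most Pdcd1lg2 of the tumors without ASC and lay within the range of the ASC tumors. ASC300 was the 1 group that did not overlap Control or A300, and all other pairs of groups overlapped. The means were 0.50 ± 0.534 CPM in Control, 0.725 ± 0.134 in A300, 1.40 ± 0.970 in ASC and 1.86 ± 0.390 in ASC300 (SD, n = 3 each), and no neighbours in that order differed beyond their spread.

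**Figure D1:**
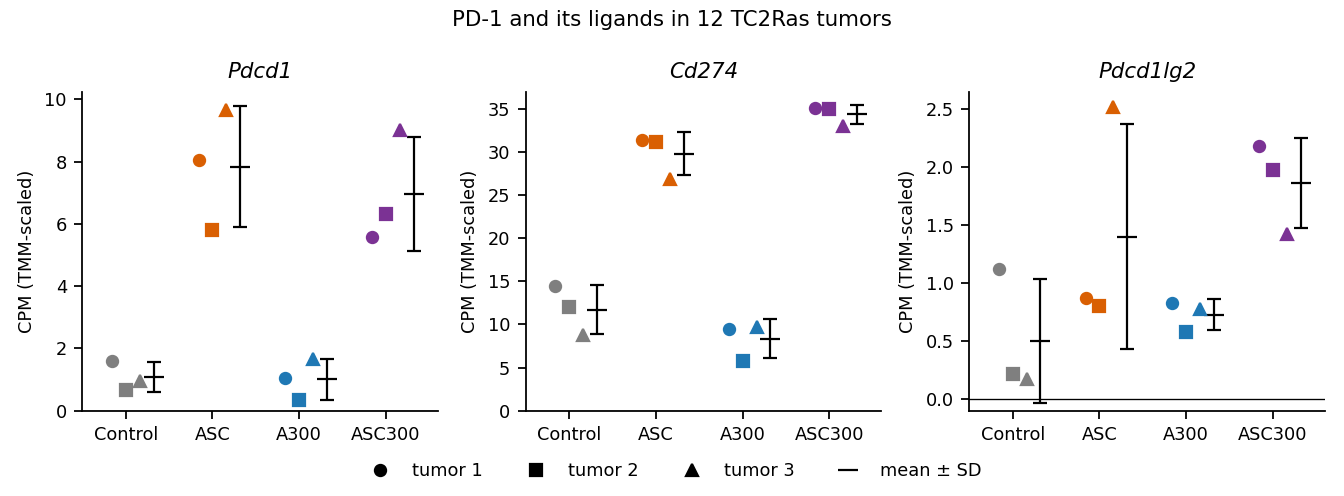
CPM (linear axis, TMM-scaled) of Pdcd1, Cd274 and Pdcd1lg2 in each of the 12 tumors by group, with symbols for tumors 1 to 3 and a bar for the mean ± SD. For Pdcd1 and Cd274 the 6 tumors with ASC lie above all 6 without, from 5.57 and 27.0 CPM upwards, and for Pdcd1lg2 Control tumor 1 at 1.12 CPM lies among the ASC tumors.

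Per kilobase of exon, which allows levels to be compared between genes, Cd274 was the most abundant in every group. Its mean level was 3.24 CPM per kb in Control, 8.24 in ASC, 2.30 in A300 and 9.50 in ASC300. Pdcd1 stood at 0.552, 4.06, 0.522 and 3.61 CPM per kb in the same order, and Pdcd1lg2 at 0.255, 0.713, 0.370 and 0.948. The mean level of the receptor per kilobase lay between those of the ligands in every group.

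The ASC minus Control comparison asks what the admixed ASC changed at 0 ppb iAs. The receptor rose 7.34-fold (log2 fold change 2.88, SE 0.50, edgeR adjusted p = 0.0153) and PD-L1 rose 2.54-fold (1.35, SE 0.21, adjusted p = 0.00708). The value for Pdcd1lg2 was 2.79-fold (1.48, SE 0.67), and its p of 0.0456 became 0.314 after adjustment, so it was not called. A gene was called when its adjusted p was below 0.05 and it differed by 1.5-fold or more, and 2 of the 3 genes were called up, against 0.706% of all 20818 genes. Pdcd1 missed the threshold without Control replicate 2 (2.63, adjusted p = 0.0713), without Control replicate 3 (2.82, adjusted p = 0.0903) and without ASC replicate 3 (2.70, adjusted p = 0.0565). Without Control replicate 1 the log2 fold changes were 3.29 for Pdcd1 (adjusted p = 0.0142), 1.53 for Cd274 (adjusted p = 0.00508) and 2.85 for Pdcd1lg2 (adjusted p = 0.0437), and all 3 genes were called.

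The ASC300 minus A300 comparison puts the same question at 300 ppb iAs. Pdcd1 rose 6.88-fold (log2 fold change 2.78, SE 0.50, adjusted p = 0.0177) and Cd274 rose 4.13-fold (2.05, SE 0.21, adjusted p = 0.000385). Pdcd1lg2 was at 2.56-fold (1.36, SE 0.65, adjusted p = 0.526). That made 2 of 3 genes called up, against 0.793% of all genes. The receptor was not called without A300 replicate 1 (2.81, adjusted p = 0.0758), ASC300 replicate 2 (2.83, adjusted p = 0.0509) or ASC300 replicate 3 (2.55, adjusted p = 0.0826), while Cd274 was called in each of these fits.

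Averaged over both iAs levels, the ASC main effect compared 6 tumors with 6. Pdcd1 rose by 2.83 on the log2 scale (SE 0.35, adjusted p = 0.000575), with an interval of 2 SE on each side from 4.37-fold to 11.6-fold. Cd274 rose by 1.70 (SE 0.15, adjusted p = 3.2e-05), with an interval from 2.64-fold to 3.98-fold. Pdcd1lg2 was 2.67-fold higher with an interval from 1.40-fold to 5.10-fold, and its p of 0.00998 became 0.224 after adjustment over all genes. Of all genes, 1.36% were called up in this comparison. The receptor and PD-L1 stayed called when any 1 of the 12 tumors was left out, at 3.03 and 1.78 without Control replicate 1. Pdcd1lg2 was called only without Control replicate 1 (log2 fold change 2.10, adjusted p = 0.00842), and in the fits that left out another tumor its adjusted p reached 0.446.

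The ASC300 minus Control comparison sets both exposures against neither. Pdcd1 rose 6.52-fold (log2 fold change 2.71, SE 0.49, adjusted p = 0.0218), Cd274 rose 2.93-fold (1.55, SE 0.21, adjusted p = 0.00264), and Pdcd1lg2 was at 3.70-fold (1.89, SE 0.67, adjusted p = 0.22). These were 2 of 3 genes called up, against 0.783% of all genes. Pdcd1 fell short of the threshold without Control replicate 2 (2.46, adjusted p = 0.0909), Control replicate 3 (2.65, adjusted p = 0.106), ASC300 replicate 2 (2.78, adjusted p = 0.0569) or ASC300 replicate 3 (2.48, adjusted p = 0.102). Pdcd1lg2 was called without Control replicate 1 (3.26, adjusted p = 0.0222), and Pdcd1 was then at 3.12 (adjusted p = 0.0194) and Cd274 at 1.73 (adjusted p = 0.00206). The ASC minus Control and ASC300 minus Control comparisons share their Control tumors and are not independent.

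**Figure D2:**
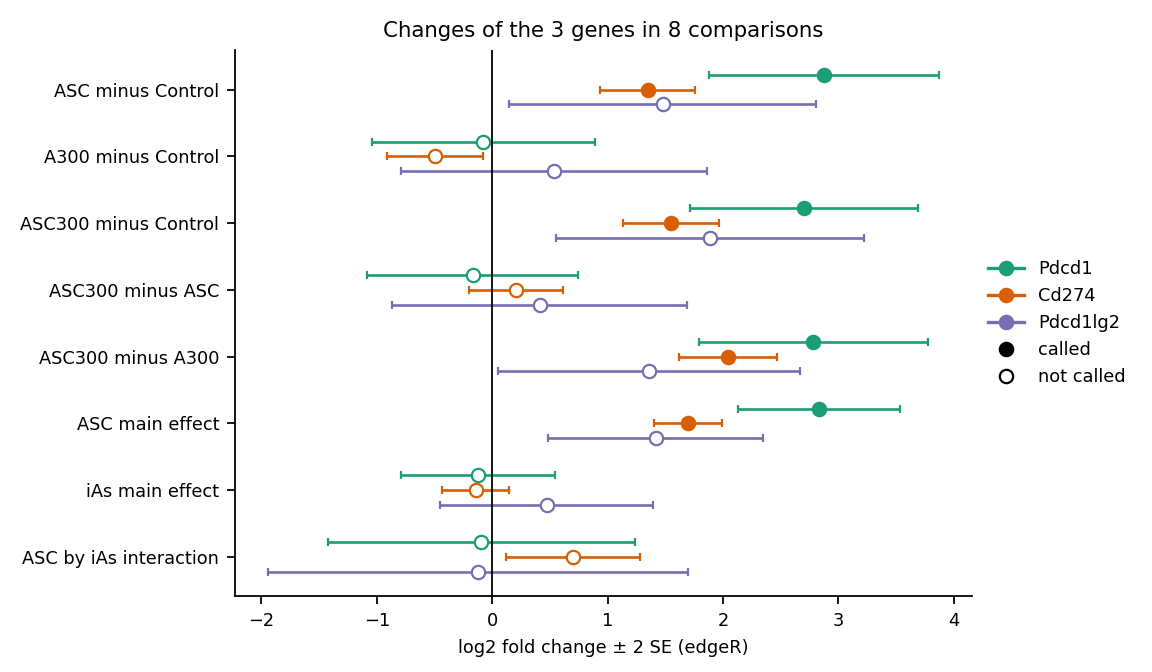
Log2 fold changes of the 3 genes in the 8 comparisons, with bars of 2 SE on each side from the edgeR fit. Filled points were called. Pdcd1 and Cd274 were called in the 4 comparisons that contrast tumors with and without ASC, and no gene was called in the other 4.

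Exposure to 300 ppb iAs alone gave no call among the 3 genes. In A300 minus Control, 0 of 3 were called, where 1.06% of all genes were called in either direction. Pdcd1 in A300 was at 0.948 times its Control level, with an interval of 2 SE from 0.486 to 1.85, and the sign of this difference turned without Control replicate 1 (log2 fold change 0.35) or A300 replicate 2 (0.34). Pdcd1lg2 was at 1.45 times, with an interval from 0.577 to 3.63, and without Control replicate 1 its log2 fold change went from 0.53 to 1.91 (SE 0.57, adjusted p = 0.097). Cd274 was at 0.71 times its Control level (log2 fold change -0.49, SE 0.21), and its p of 0.0334 became 0.166 after adjustment. By edgeR 1 of the 3 genes thus lay under 0.05 before adjustment, as did 5025 of all 20818 genes. DESeq2 called none of the 3. The Cd274 difference without Control replicate 1 was -0.30 (adjusted p = 0.475).

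Within the tumors that held ASC, iAs changed none of the 3 genes by the edgeR test. In ASC300 minus ASC the levels were 0.889 times for Pdcd1 (interval of 2 SE from 0.472 to 1.67), 1.15 times for Cd274 (0.87 to 1.53) and 1.33 times for Pdcd1lg2 (0.548 to 3.23), each with an adjusted p of 1. Without ASC replicate 3 the sign turned for the receptor (log2 fold change 0.009), and Pdcd1lg2 went from 0.41 to 1.15 (SE 0.69, adjusted p = 0.932). The background was 0% of genes called, with 669 of 20818 genes at an unadjusted p under 0.05, none of the 3 among them, and 11 other genes called by DESeq2. For Cd274 the ASC300 tumors lay above the ASC tumors without overlap, at 33.1 CPM and more against 31.4 CPM and less. That difference had an edgeR p of 0.331 before adjustment, and the share of all genes separated in this way was not computed.

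The iAs main effect was -0.12 on the log2 scale for Pdcd1 (SE 0.33, adjusted p = 0.893), -0.14 for Cd274 (SE 0.14, adjusted p = 0.665) and 0.47 for Pdcd1lg2 (SE 0.46, adjusted p = 0.656). Leaving out Control replicate 1 gave 0.09, -0.05 and 1.16 in the same order, and for Pdcd1lg2 (SE 0.36) a p of 0.00749 became 0.231 after adjustment. Without ASC replicate 3 the Pdcd1lg2 value was 0.84 (adjusted p = 0.332). With all 12 tumors, no gene tested was called by edgeR (0%), while 3325 had an unadjusted p under 0.05 and DESeq2 called 114, none of the 3 members among either. The interaction tests whether the effect of iAs differs between tumors with and without ASC. For Cd274 the interaction was 0.70 on the log2 scale (SE 0.29), and its p of 0.0319 became 0.339 after adjustment. It came from a mean level that was lower with iAs in the tumors without ASC and higher with iAs in those with ASC. The value without Control replicate 1 was 0.50 (adjusted p = 0.46). The interactions of Pdcd1 (-0.09, SE 0.67) and Pdcd1lg2 (-0.12, SE 0.91) were smaller than their errors, and without Control replicate 1 they were -0.53 (adjusted p = 0.787) and -1.51 (adjusted p = 0.385). Again 0% of genes were called by edgeR, with 2836 at an unadjusted p under 0.05, Cd274 the 1 member among them, and 174 called by DESeq2, none of the 3 members among them.

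The levels of T cell markers stand beside the receptor here because PD-1 is a receptor of T cells. The 12 markers, which include the CD3 chains, the coreceptors Cd4, Cd8a and Cd8b1 and the constant regions of the T cell receptor, summed to 66.3 to 87.2 CPM in ASC, 58.9 to 92.6 in ASC300 and 18.3 to 25.2 in A300. In Control they summed to 18.6, 22.5 and, in replicate 1, 114 CPM. The coreceptor Cd8a was the 1 marker of 12 called in the ASC main effect, at 2.20 on the log2 scale (SE 0.49, adjusted p = 0.0381). In that comparison 11 of 12 were higher. By edgeR 8 of 12 had an unadjusted p under 0.05, against 2268 of all 20818 genes. Without Control replicate 1 edgeR called 10 of 12, against 404 of 21664 genes called up. In ASC minus Control and ASC300 minus Control edgeR and DESeq2 called 0 of 12, with none at an unadjusted p under 0.05 by edgeR. Without Control replicate 1 edgeR called 8 and 6, against 212 and 199 of 21664 genes called up. In ASC300 minus A300, which holds no Control tumor, 12 of 12 were higher with a median of 1.80, and edgeR called 0. There 9 had an unadjusted p under 0.05, against 2077 of all 20818 genes. In the ASC main effect the median log2 fold change of the 12 was 1.25, against 2.83 for Pdcd1 and -0.004 over all genes. Cd4 was at -0.11 in the same comparison (SE 0.28, adjusted p = 0.938).

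The T cell score of a tumor, the mean log2 CPM of these 12 markers, was set against Pdcd1 to compare receptor transcript per T cell marker. Pdcd1 minus the score was -2.43, -1.21 and -0.313 in Control and -0.399, -1.81 and -0.209 in A300. It was 0.706, 0.004 and 0.645 in ASC and 0.280, 0.488 and 0.462 in ASC300. All 6 tumors with ASC lay above all 6 without. The ASC main effect on this difference was 1.49 on the log2 scale, or 2.82-fold, with p = 0.005 in a two-sided exact permutation test that exchanged labels within each iAs level, which was the smallest p it can give, and 0.02 after Benjamini-Hochberg adjustment over 4 such tests. Without Control replicate 1 the difference was 1.22 (exact test, adjusted p = 0.02), and with a score over Cd3d, Cd3e and Cd3g alone it was 1.09, which did not pass (exact test, adjusted p = 0.1). The iAs main effect was 0.236 (exact permutation test, adjusted p = 0.58). Control replicate 1 had the highest T cell score of all 12 tumors, 3.14, and the lowest Pdcd1 relative to it.

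**Figure D3:**
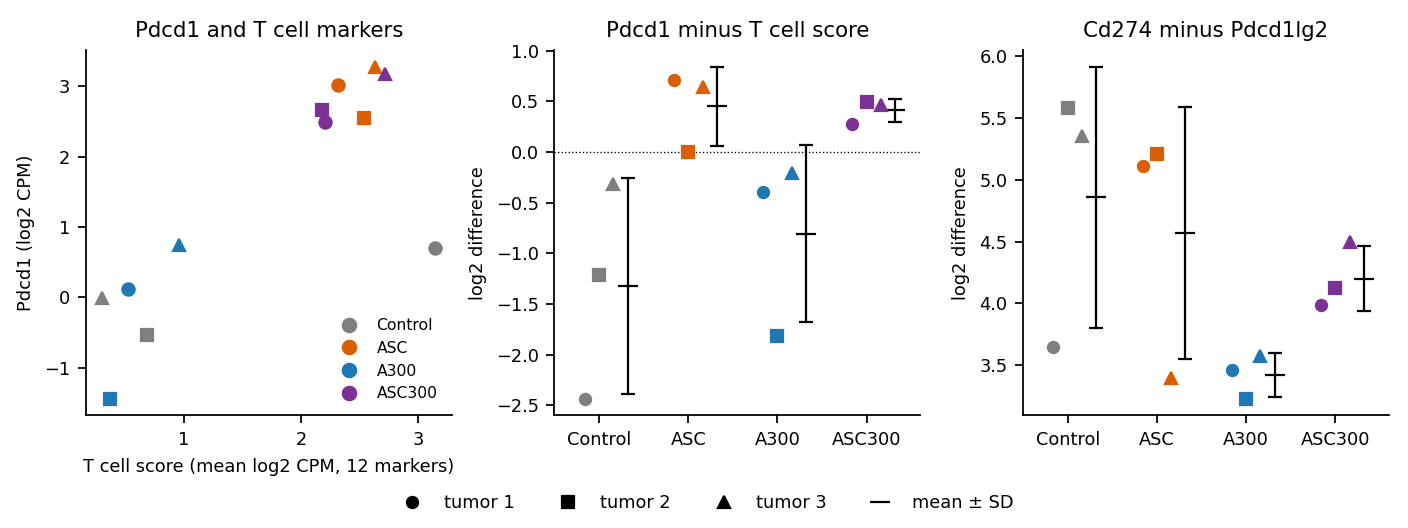
Left, log2 CPM of Pdcd1 against the T cell score in 12 tumors, colored by group. Center and right, Pdcd1 minus the T cell score and Cd274 minus Pdcd1lg2 (log2 differences) in each tumor, with the mean ± SD. Control tumor 1 has the highest T cell score (3.14) at a low Pdcd1 level, and the 6 tumors with ASC lie at or above 0.004 in the center panel.

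Macrophages and dendritic cells are among the cells known to carry both ligands. The 10 macrophage markers summed to 873 to 1203 CPM in Control, 1277 to 1793 in ASC, 1213 to 1222 in A300 and 1367 to 1614 in ASC300. In the ASC main effect 2 of 10 rose, Fcgr1, a high-affinity Fc receptor (log2 fold change 1.02, SE 0.12, adjusted p = 0.000292), and C1qb, a complement component (0.61, SE 0.09, adjusted p = 0.00213), with a median of 0.34 over the list. C1qa (0.55, adjusted p = 0.00134) and C1qc (0.56, adjusted p = 0.00212) passed the adjusted p but not the fold. Of the 11 dendritic cell markers 2 rose, Itgax (0.97, SE 0.16, adjusted p = 0.00464) and Batf3 (0.81, SE 0.18, adjusted p = 0.0309), with a median of 0.17. Only 7 of the 11 were higher in direction, and in ASC300 minus A300 5 of 11 were, with a median of -0.006. Of all genes, 1.36% were called up in the ASC main effect. The counts without Control replicate 1 were 2 of 10 and 3 of 11, against 404 of 21664 genes called up. In ASC minus Control and in ASC300 minus Control 4 of 10 macrophage markers rose, C1qa, C1qb, C1qc and Fcgr1. Of all genes, 0.706% and 0.783% were called up in these comparisons. Of the other lists, 0 of 8 B cell, 0 of 8 fibroblast and 0 of 6 endothelial markers were called in the ASC main effect by edgeR or DESeq2. There 1 of each had an unadjusted p under 0.05 by edgeR, and 1 of 7 epithelial markers fell. In ASC minus Control and ASC300 minus Control, edgeR called 0 of 8 B cell markers, with 6 and 7 at an unadjusted p under 0.05. DESeq2 called 0 and 1, the latter as a fall. Their median log2 fold changes were -3.1 and -3.4 there, and 0.48 and 0.14 without Control replicate 1. The part of these cell types in the ligand levels was not tested.

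**Figure D4:**
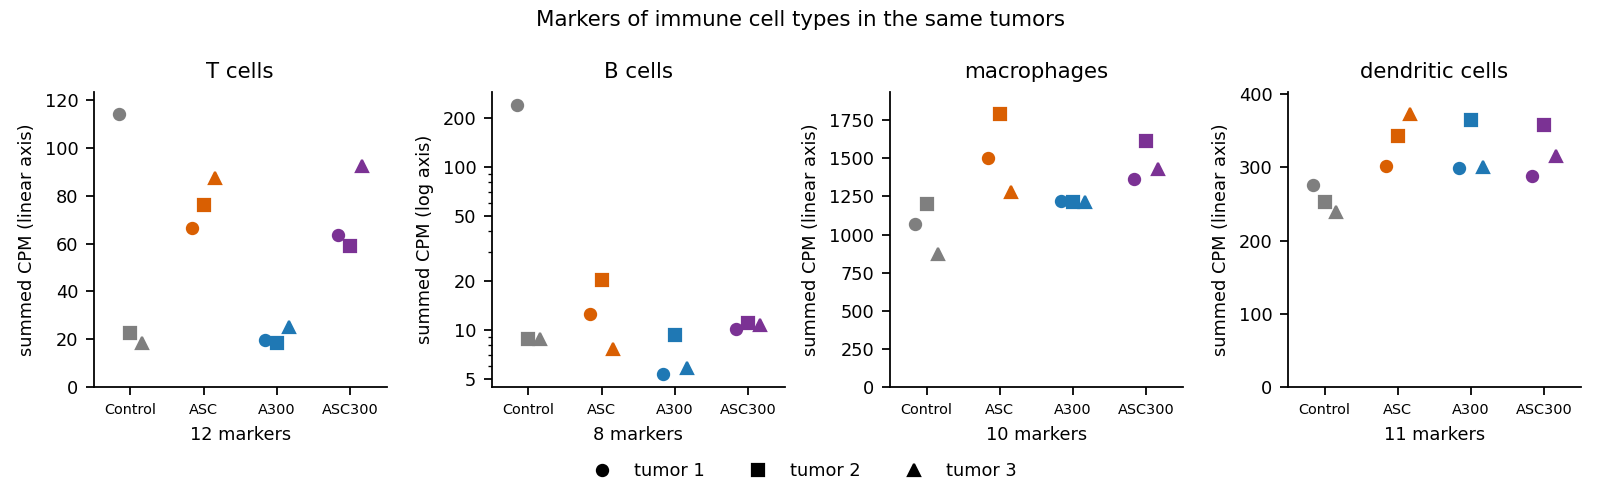
Summed CPM of the markers of T cells (12), B cells (8), macrophages (10) and dendritic cells (11) in each tumor, with a log axis for B cells and linear axes from 0 for the others. Control tumor 1 stands at 114 CPM of T cell and 238 CPM of B cell markers, and the tumors with ASC hold 58.9 to 92.6 CPM of T cell markers.

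Between the ligands, Cd274 exceeded Pdcd1lg2 in every tumor. On the log2 scale Cd274 minus Pdcd1lg2 was 3.65, 5.58 and 5.35 in Control, 5.11, 5.21 and 3.40 in ASC, 3.47, 3.23 and 3.58 in A300 and 3.99, 4.12 and 4.50 in ASC300. Every A300 tumor lay below every Control tumor, the nearest pair being 3.58 and 3.65, while ASC and ASC300 overlapped. The ASC main effect on this balance was 0.245 (exact permutation test, adjusted p = 0.58), with the sign turned without Control replicate 1 (-0.057). The iAs main effect was -0.901, so that the balance was 0.535 times as high with iAs, but this did not pass the test (exact permutation test, p = 0.08, adjusted p = 0.16). Without ASC replicate 3 it was -1.19 with an adjusted p of 0.02 in the same test.

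The interferon gamma route to Cd274 was read from 10 genes, all of them tested. In the ASC main effect 3 of 10 rose and none fell, against 1.36% of all genes called up. There 10 of 10 were higher in direction, and the median log2 fold change was 0.19 against -0.004 over all genes, of which 49% were higher. Ifng, the cytokine itself, was at 0.103, 0.230 and 0.087 CPM in Control and 0.300, 0 and 0.406 CPM in A300, against 2.31, 1.72 and 2.24 CPM in ASC and 1.86, 2.21 and 3.52 CPM in ASC300. The transcription factor Irf1 had a mean of 57.5 ± 9.34 CPM in Control, 162 ± 17.2 in ASC, 54.7 ± 4.28 in A300 and 172 ± 16.6 in ASC300 (SD, n = 3 each). Tumors with ASC thus stood apart from tumors without for both genes, with no overlap. The log2 fold changes were 3.63 for Ifng (SE 0.57, adjusted p = 0.00385), 1.57 for Irf1 (SE 0.09, adjusted p = 1.37e-06) and 1.10 for Socs1, a feedback inhibitor of the pathway (SE 0.13, adjusted p = 0.000312). Irf2 passed the adjusted p (0.00749) but not the fold, at 0.35. The receptor genes Ifngr1 and Ifngr2 and the kinases Jak1 and Jak2 were not called. In ASC minus Control 2 of 10 rose and in ASC300 minus Control 3 of 10, against 0.706% and 0.783% of all genes. By edgeR, Ifng was called in neither ASC minus Control (adjusted p = 0.0563) nor ASC300 minus A300 (adjusted p = 0.0813). Without Control replicate 1 the main effect still gave 3 and ASC300 minus Control gave 2, against 404 and 199 of 21664 genes called up.

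The IL-4 and GM-CSF route to Pdcd1lg2 held 7 genes, of which 6 were tested, and edgeR called none in any of the 8 comparisons. In the ASC main effect 3 of 6 had an unadjusted p under 0.05 and DESeq2 called 0, while DESeq2 called 1 in ASC minus Control and 1 in ASC300 minus Control. Il13 had no counts in any group. The nearest were Csf2ra, a GM-CSF receptor chain (log2 fold change 0.54, SE 0.14, adjusted p = 0.0992), Il4ra, the IL-4 receptor alpha chain (0.32, SE 0.10, adjusted p = 0.172), Csf2rb (0.33, SE 0.15, adjusted p = 0.454) and the factor Stat6 (0.06, SE 0.06, adjusted p = 0.802). The cytokines themselves were low, with group means of 0.849 to 0.996 CPM for Il4 and 0.205 to 0.550 CPM for Csf2.

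Of 10 genes that act with PD-1, 1 rose in the ASC main effect, against 1.36% of all genes called up. That gene was Zap70, a kinase of T cell receptor signaling (log2 fold change 1.29, SE 0.29, adjusted p = 0.0382). By edgeR, Zap70 was called in neither ASC minus Control (adjusted p = 0.279) nor ASC300 minus A300 (adjusted p = 0.123). Ptpn6, which encodes the phosphatase SHP-1, was at 0.74 (SE 0.18, adjusted p = 0.0735), the kinase Lck at 1.03 (SE 0.31, adjusted p = 0.172) and the costimulatory receptor Cd28 at 0.96 (SE 0.33, adjusted p = 0.254). Without Control replicate 1 all 4 were called, and the list gave 4 of 10, against 404 of 21664 genes called up. Ptpn11, which encodes the phosphatase SHP-2, and the PD-L1 stabilizers Cmtm6 and Cmtm4 were within 0.09 of no change.

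Among 10 transcription regulators tied to Pdcd1, 1 rose in the ASC main effect, against 1.36% of all genes called up. Tox, a factor of chronically stimulated T cells, was at 1.78, 0.672 and 0.391 CPM in Control, 3.89, 2.84 and 4.78 in ASC, 0.650, 0.286 and 0.547 in A300 and 1.88, 2.82 and 4.93 in ASC300. Its lowest tumor with ASC (1.88 CPM) lay just above its highest without (1.78 CPM, Control replicate 1). Its log2 fold change in the ASC main effect was 2.36 (SE 0.39, adjusted p = 0.0055), next to 2.83 for Pdcd1. By edgeR, Tox was also called in ASC300 minus A300 (adjusted p = 0.0461). Unlike Pdcd1, it was not called in ASC minus Control (adjusted p = 0.127) or ASC300 minus Control (adjusted p = 0.165). Notch1 passed the adjusted p (0.0182) but not the fold, at 0.41, and Tbx21 (1.18, adjusted p = 0.212) and Eomes (0.50, adjusted p = 0.467) passed neither. Tbx21 was called too without Control replicate 1 (1.64, adjusted p = 0.0137), and the list gave 2 of 10, against 404 of 21664 genes called up. Nfatc1, whose family binds the core letters found before Pdcd1, was at 0.09 (adjusted p = 0.784).

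Of 6 other B7 family ligands tested, none rose and 1 fell in the ASC main effect by edgeR, with 4 at an unadjusted p under 0.05. Of all genes tested, 0.0865% were called down in this comparison. DESeq2 made the same count of calls. That gene, Vtcn1 (B7-H4), was at 4.71 ± 0.51 CPM in Control, 2.86 ± 0.71 in ASC, 5.49 ± 0.63 in A300 and 2.79 ± 0.90 in ASC300 (SD, n = 3 each), and it fell by 0.85 on the log2 scale (SE 0.19, adjusted p = 0.0353, and 0.0549 without Control replicate 1). Vsir, which encodes the checkpoint VISTA, was at 0.44 (SE 0.10, adjusted p = 0.052), the CD28 ligand Cd86 at 0.47 (SE 0.12, adjusted p = 0.0825) and Cd276 (B7-H3) at 0.19 (SE 0.07, adjusted p = 0.347). The difference between Cd274 and these genes was not itself tested.

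**Figure D5:**
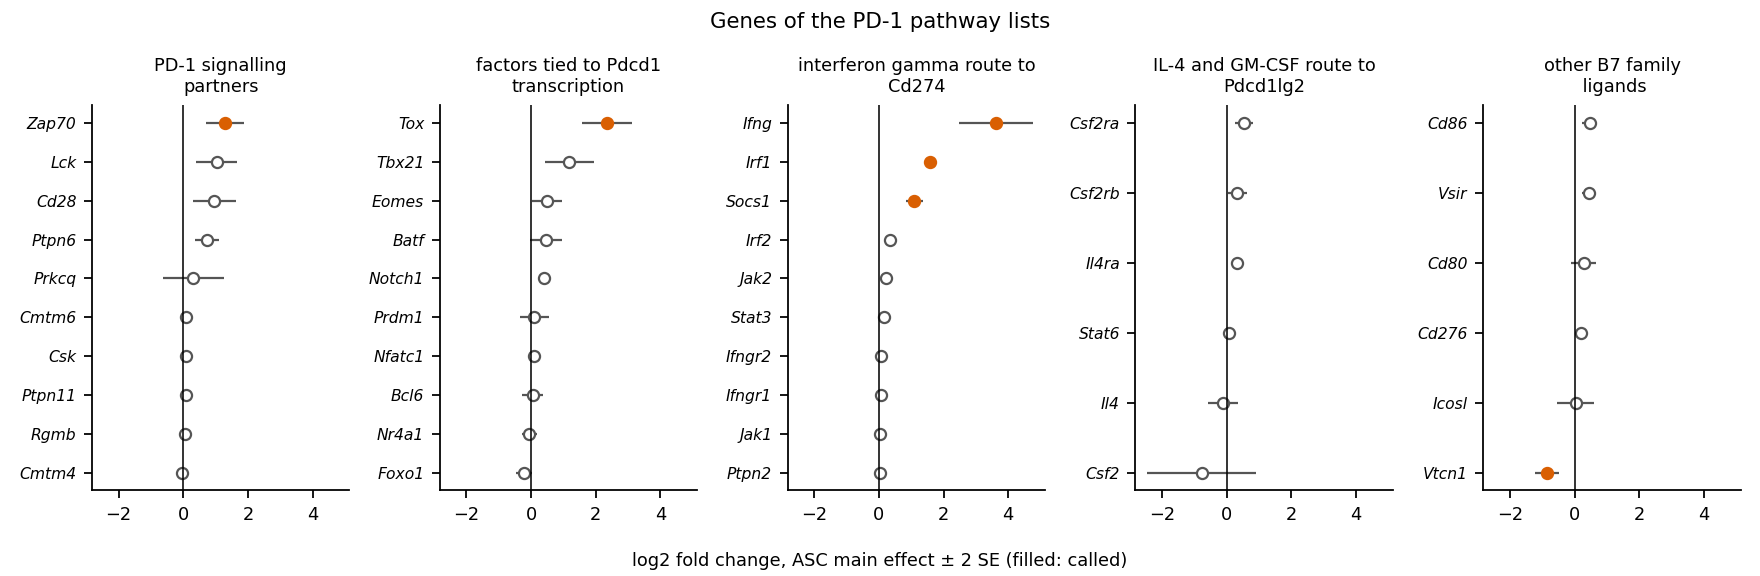
Log2 fold changes in the ASC main effect with bars of 2 SE on each side for the tested genes of the 5 lists, filled where called. The largest values are Ifng at 3.63, Tox at 2.36 and Irf1 at 1.57, and Vtcn1 at -0.85 is the 1 called decrease.

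Around the ligand genes on chromosome 19, none of the tested neighbours was called in the ASC main effect. Plgrkt, the next protein-coding gene before Cd274 that was tested, had a log2 fold change of 0.13 in the ASC main effect (SE 0.10, adjusted p = 0.692), and Ric1 and Ermp1, which follow Pdcd1lg2, were at -0.05 (SE 0.08) and -0.11 (SE 0.06). Next to Pdcd1, Fam174a was at 0.30 (SE 0.13, adjusted p = 0.415) and St8sia4 at -0.11 (SE 0.19, adjusted p = 0.906). Insl6, which also precedes Cd274, was at 0.31 (SE 0.25, adjusted p = 0.74). In A300 minus Control, Ric1 (-0.52, SE 0.11, adjusted p = 0.0447) and Ermp1 (-0.43, SE 0.09, adjusted p = 0.043) passed the adjusted p but not the fold, beside -0.49 for Cd274. In the same comparison Plgrkt was at -0.03 (SE 0.13), Insl6 at 0.13 (SE 0.36) and Pdcd1lg2 at 0.53 (SE 0.66). Next to Pdcd1, St8sia4 was then at -0.97 (SE 0.26, adjusted p = 0.0599) and Fam174a at 0.39 (SE 0.18, adjusted p = 0.205). Gal3st2b, Gal3st2c, Neu4, Slco4c1, Rln1 and Mlana were below the filter.

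Likeness of pattern was described by Pearson's r of log2 CPM over the 12 tumors, which share the ASC contrast, so that any gene moved by ASC ranks high. Pdcd1 was nearest to AW112010 (r = 0.982), the chemokine Cxcl9 (0.978), and Irgm1, Iigp1 and Tgtp1 (0.973, 0.973 and 0.971), which are interferon-inducible GTPases. Cd274 was nearest to Clec12a, a myeloid lectin receptor (0.992), to Iigp1 (0.990), and to the guanylate-binding genes Gbp5, Gbp3 and Gbp4 (0.986, 0.985 and 0.985). Cxcl9, as an example of level, had means of 16.9 ± 8.31 CPM in Control, 149 ± 23.4 in ASC, 14.5 ± 8.20 in A300 and 173 ± 16.4 in ASC300 (SD, n = 3 each). For Pdcd1lg2 the nearest genes were Psme2b (0.926), Rftn1 (0.916), Gm7232 (0.902), Ikzf4 (0.888) and Faap24 (0.887), and none of these was among the 5 nearest to either other gene. Among themselves, Pdcd1 and Cd274 had r = 0.945, Pdcd1 and Pdcd1lg2 0.729, and Cd274 and Pdcd1lg2 0.677. With the T cell score, r was 0.805 for Pdcd1, 0.817 for Cd274 and 0.724 for Pdcd1lg2.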

How the data were processed

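Per the labels, poly(A) RNA of 12 tumors (TruSeq stranded kit) was sequenced in pairs. The submitters' processing notes name Cutadapt 1.1.0, HISAT2 2.0 and StringTie 1.3.4. The values deposited by the authors are whole-number counts per gene, not normalized. The step that made the counts, the genome build and the annotation are not given in the sources used here. In every tumor more genes had a count of 4 than of 3 or 5, for example 1137 against 677 and 398 in Control replicate 1. The number of counts per read pair is not known.

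Symbols came from GENCODE M21 for 55141 of 55401 genes. Counts were filtered by edgeR's filterByExpr (20818 genes kept), scaled by TMM (factors 0.953 to 1.054) and fitted with edgeR 4.0.16 in R 4.3.3 as 1 mean per group over all 12 tumors. The quasi-likelihood F test was adjusted by Benjamini-Hochberg over all genes tested, and a call needed an adjusted p under 0.05 and at least 1.5-fold. The main effects average over the levels of the other factor. Log2 CPM carries a prior count of 2. With 3 tumors against 3, an exact permutation test cannot go below 0.1, so exact tests were made only for 2 differences over 12 tumors. Each library is 1 mouse, so p-values cover the spread between mice. The procedure was tested on simulated data.

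The members and lists were chosen with earlier results of these data known. Named genes were the 3 members, up to 4 genes per pathway list with the smallest p in the ASC main effect, the 5 genes most like each member and the 3 protein-coding neighbours on each side. Cell type markers, and other list genes named as not called, were named outside this rule after their values were seen. Alternatives were DESeq2 1.42.0, its size factors in edgeR, no filter, at least 10 counts in every tumor, the replicate number in the model, counts divided by 4, fits of only the 6 tumors compared, leaving out each tumor, a prior count of 0.5 and a T cell score over 3 CD3 genes. The lists were also recomputed with DESeq2, with the replicate number and without Control replicate 1, which was chosen after seeing the data. Protein sequences were not used here, and 1 gene of the interferon gamma list is not reported here.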

Additional observations from a re-analysis of the deposited data

How the results depend on the processing

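Over the 3 genes and the derived differences, 464 recomputed values kept their direction and their side of the threshold, 16 turned direction, 12 lost a call and 4 gained one. Cd274 and the Pdcd1 ASC main effect kept every call and every failed test. Leaving out 1 tumor at a time moved the log2 difference of Pdcd1 from 2.634 to 3.292 in ASC minus Control, 2.459 to 3.117 in ASC300 minus Control, 2.363 to 3.326 in ASC300 minus A300, -0.611 to 0.35 in A300 minus Control, -0.399 to 0.009 in ASC300 minus ASC, -0.393 to 0.088 in the iAs main effect and -0.525 to 0.436 in the interaction. Pdcd1lg2 ranged from 0.741 to 2.852 in ASC minus Control, 1.502 to 3.257 in ASC300 minus Control, 1.049 to 2.097 in the ASC main effect, 0.16 to 1.915 in A300 minus Control, 0.138 to 1.151 in ASC300 minus ASC, 0.283 to 1.16 in the iAs main effect and -1.51 to 0.617 in the interaction. Pdcd1 minus the T cell score ranged from 1.215 to 1.745 for ASC and -0.043 to 0.487 for iAs, and Cd274 minus Pdcd1lg2 from -0.057 to 0.537 for ASC and -1.203 to -0.722 for iAs. With a score over 3 CD3 genes, Pdcd1 minus the score was 1.093 for ASC (exact test, adjusted p = 0.1). The causes were not tested.

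Replicate numbers did not pair the tumors, since 2 of 18 correlations between tumors of the same number were above 0.1. With the replicate block the Pdcd1 interaction was 0.067, and Pdcd1 minus the T cell score was 1.494 for ASC with an adjusted p of 0.125 (exact test, at the smallest p that exchanges within a number allow). Zap70 and Vtcn1 lost their calls there (adjusted p = 0.073 and 0.0616). Calls over all genes differed by tool, with 150 by edgeR and 450 by DESeq2 in ASC minus Control, 220 and 816 in A300 minus Control, 168 and 390 in ASC300 minus Control, 178 and 399 in ASC300 minus A300 and 301 and 478 in the ASC main effect. The edgeR calls in A300 minus Control went to 0 without any 1 Control tumor and to 8 with no filter. They were also 0 without ASC300 replicate 1 or replicate 3, and 7 without ASC300 replicate 2. Without A300 replicate 2 there were 0 up and 1 down, and without A300 replicate 3 there were 1 up and 1 down. Without ASC replicate 1 there were 279 up and 115 down. DESeq2 called 3 of the genes that act with PD-1 and 3 T cell markers in the ASC main effect, against 1 and 1 by edgeR. Pdcd1lg2 had no value with at least 10 counts in every tumor, and no adjusted p from DESeq2 in ASC minus Control. Pdcd1lg2 rested on 8 to 54 counts per tumor in Control.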
